A study of Mus musculus with 6 samples.

Results

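The genes described here encode the machinery of mitosis and cytokinesis, the steps in which a cell condenses, separates and divides its copied chromosomes. A list of 36 such genes was looked up by symbol in the expression table, taking for each gene the probe set with a single gene symbol and, where there were several, the highest mean over the arrays. This gave 35 genes of the 19938 with a single-symbol probe set. Cyclin B1 (Ccnb1) had no such probe set and was not analysed here. Expression was measured in total RNA on 6 Affymetrix Mouse Gene 1.0 arrays. The cells came from the tibia and femur marrow of C57B/6 mice and had spent 6 days in culture with recombinant GM-CSF (20 ng/ml), a cytokine under which myeloid cells grow and mature. By their labels 3 arrays hold dendritic cells and 3 hold macrophages, numbered 1 to 3 in each. All are unstimulated cells from such cultures, and every group shares the GM-CSF treatment. The sources used here do not give how the populations were separated or whether the replicates came from separate mice, so the p-values rest on a spread between arrays that may be purely technical.

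Entry into mitosis depends on cyclins A2 and B binding the kinase Cdk1. Chromosomes then attach to spindle microtubules at kinetochores, a checkpoint holds the cell until all are attached, and the anaphase-promoting complex ends mitosis by marking cyclins and securin for destruction. Most of these genes are transcribed mainly in the G2 phase and mitosis, so their RNA in a mixed population is widely used as a measure of dividing cells. In RNA from many cells, fewer dividing cells and less of a transcript per cell cannot be told apart.

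The population labels matched their markers. All 8 measured dendritic cell markers, among them Flt3, Ccr7 and Fscn1, were higher in the dendritic arrays, and all 8 measured macrophage markers, among them Csf1r, Msr1 and C1qa, were lower (limma adjusted p under 0.05, Benjamini-Hochberg). Over all genes, Pearson's r was 0.980 to 0.993 within a population and 0.903 to 0.923 between the populations. Replicate 1 stood somewhat apart in both populations. Of 13 measured neutrophil and granulocyte precursor markers, 7 were highest on replicate 1 in both populations. The antimicrobial peptide gene Camp, for example, read 8.45, 7.19 and 6.67 in dendritic replicates 1, 2 and 3 and 8.27, 6.79 and 6.33 in macrophage replicates 1, 2 and 3. Of the 13, Mpo and Mmp8 were lower in the dendritic population, Mmp8 by far (-5.63 ± 0.41). Summed on the linear scale without Mmp8, the other 12 reached 5356, 3461 and 2281 on the dendritic and 6034, 2518 and 3136 on the macrophage arrays (with it 5437, 3484 and 2309, and 8268, 4143 and 4889). S100a8 and S100a9 made up most of each sum without Mmp8, so these sums say little of the other markers. Of 7 progenitor markers 5, Kit, Meis1, Myb, Flt3 and Sox4, were higher in the dendritic population. Flt3 is also counted above as a dendritic cell marker. Among erythroid and lymphoid markers, the transferrin receptor Tfrc was lower (-1.70) and Cd79a (0.81), Igll1 (0.53) and Cd8a (2.81), which a class of dendritic cells also carries, were higher. Of 7 mast cell and 6 stromal markers 0 passed limma's test, adjusted or unadjusted. The part of these cells in the results on mitotic genes was not tested.

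Mitotic genes were low on the 3 dendritic arrays and on macrophage replicate 1, and high on macrophage replicates 2 and 3. The median log2 value over the 35 genes was 4.47, 4.84 and 4.67 on dendritic replicates 1, 2 and 3, and 4.63, 6.17 and 6.01 on macrophage replicates 1, 2 and 3. The median over all genes ran between 4.99 and 5.16, which the processing method RMA holds nearly level by equalising the arrays' distributions. Values throughout are on the log2 scale that RMA gives. A difference subtracts the mean of the 3 macrophage arrays from that of the 3 dendritic arrays and is given ± its standard error from limma (n = 3 per population).

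**Figure D1:**
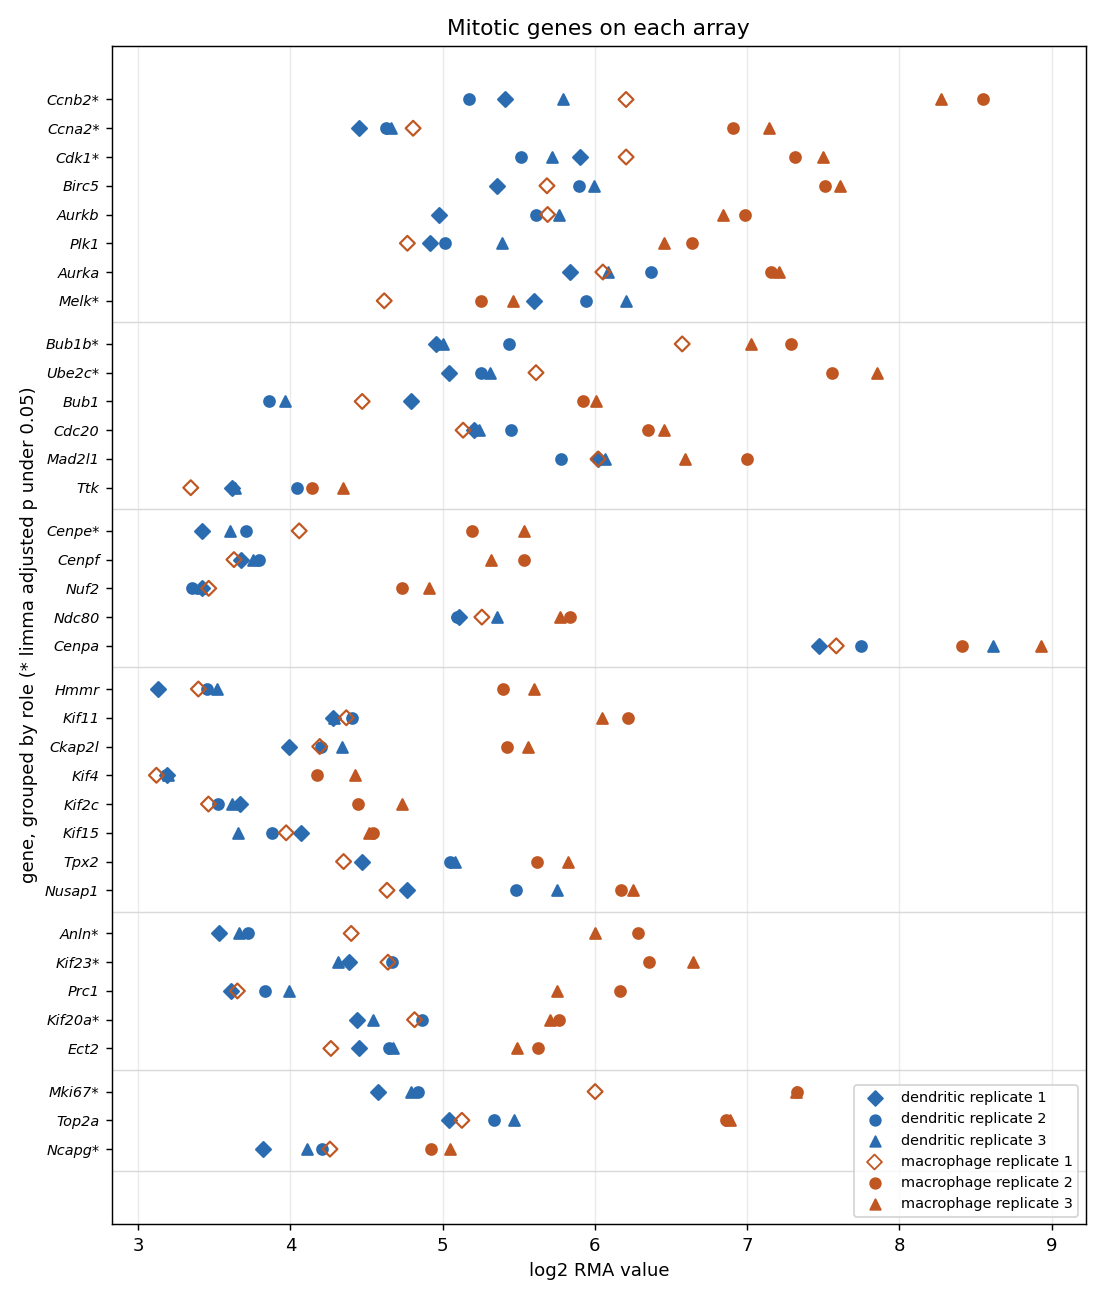
Log2 RMA value (horizontal axis) of each of 35 mitotic genes (rows, grouped by role) on each of the 6 arrays. Blue symbols are dendritic, orange symbols macrophage, and the open diamond is macrophage replicate 1, which lies near the blue symbols for most genes while replicates 2 and 3 lie to the right.

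Of the 35 genes, 34 had a lower mean in the dendritic population, with a median difference of -0.97 where the median over all genes was 0.03. The difference was below 0 for 43.7% of all genes. With all 6 arrays 11 genes (31.4%) were called lower and 1 (2.86%) higher at a limma adjusted p under 0.05, adjusted over all genes. Of all genes, 11.6% were called lower and 9.98% higher, 21.6% in all. The adjusted p of the 11 lower genes ran from 0.000229 to 0.0493. Blocking on the replicate number gave 21 lower (60.0%), against 13.9% of all genes. The count changed whichever array was left out. It was 7 without dendritic replicate 1, 4 without dendritic replicate 2, 6 without dendritic replicate 3, 32 without macrophage replicate 1, 4 without macrophage replicate 2 and 3 without macrophage replicate 3. Without macrophage replicate 1, 11.0% of all genes were called lower and 9.15% higher. Shares of all genes without each other array are not given here. Those lower counts were therefore not compared with a loss of calls over all genes.

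Among the cyclins and mitotic kinases, the regulators that drive entry into mitosis, Ccnb2, Ccna2 and Cdk1 were lower in the dendritic population. Cyclin B2 (Ccnb2, probe set 10594774) had the largest difference of the 35 genes. It read 5.41, 5.17 and 5.79 on dendritic replicates 1, 2 and 3, and 6.20, 8.55 and 8.27 on macrophage replicates 1, 2 and 3. The populations did not overlap, and macrophage replicate 1 lay closer to the dendritic arrays than to its own replicates. The difference was -2.22 ± 0.52, or 4.65-fold (limma adjusted p = 0.0143).

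Cdk1 (probe set 10369815), the kinase that cyclins A and B activate, read 5.90, 5.51 and 5.72 on the dendritic and 6.20, 7.31 and 7.50 on the macrophage arrays, a difference of -1.29 ± 0.30 (limma adjusted p = 0.0137). Cyclin A2 (Ccna2) read 4.45, 4.63 and 4.66 against 4.81, 6.91 and 7.14, or -1.71 ± 0.51 (limma adjusted p = 0.0438). For both genes every dendritic array lay below every macrophage array, and the gap to macrophage replicate 1 was small. The call of Ccna2 held in 9 of 16 alternative analyses and that of Cdk1 in 13 of 16.

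The polo and aurora kinases did not pass with all arrays. Polo-like kinase 1 (Plk1), which promotes mitotic entry and spindle assembly, read 4.92, 5.02 and 5.39 on the dendritic and 4.77, 6.64 and 6.46 on the macrophage arrays. Aurora A (Aurka), a centrosome kinase, read 5.84, 6.37 and 6.09 against 6.05, 7.16 and 7.21, the smallest absolute difference in this group (-0.71 ± 0.30, limma adjusted p = 0.142). Macrophage replicate 1 fell below all dendritic arrays for Plk1 and among them for Aurka. Aurora B (Aurkb), the kinase of the chromosomal passenger complex, differed by -1.06 ± 0.34 (adjusted p = 0.0569), and survivin (Birc5), a subunit of the same complex, by -1.18 ± 0.46 (adjusted p = 0.109). With the replicate number as a block Aurka (adjusted p = 0.0223), Aurkb (0.00151) and Birc5 (0.0107) passed, within ranges over all alternatives of 0.00156 to 0.389, 0.000271 to 0.187 and 4.62e-05 to 0.321.

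Melk, a kinase whose RNA is commonly counted with mitotic genes, went the other way. It read 5.60, 5.94 and 6.20 on the dendritic arrays and 4.62, 5.25 and 5.46 on the macrophage arrays. Every dendritic array lay above every macrophage array, and the difference was 0.80 ± 0.24 (limma adjusted p = 0.0388). Within the macrophage population Melk followed the other genes, with replicate 1 lowest. It was called in 11 of 16 alternatives (limma adjusted p 0.00192 to 0.138). The call was lost with all probe sets tested and without dendritic replicate 2, dendritic replicate 3, macrophage replicate 1 (0.56 ± 0.20, limma adjusted p = 0.0869) or macrophage replicate 2.

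Of the checkpoint genes and partners of the anaphase-promoting complex, Bub1b and Ube2c were lower in the dendritic population. The checkpoint protein BubR1 (Bub1b, probe set 10474769) read 4.96, 5.44 and 5.0 on the dendritic and 6.57, 7.29 and 7.03 on the macrophage arrays. It had the smallest spread among the macrophage arrays of the genes called lower, since replicate 1 was only 0.58 below the mean of the other two. The difference was -1.83 ± 0.21, or 3.56-fold (limma adjusted p = 0.000229), and it was called in 16 of 16 alternatives.

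Ube2c, the ubiquitin-conjugating enzyme of the anaphase-promoting complex, read 5.04, 5.25 and 5.31 against 5.61, 7.56 and 7.86 (-1.81 ± 0.49, limma adjusted p = 0.0274, called in 9 of 16 alternatives). The checkpoint kinase Ttk showed the smallest difference of all 35 genes, with 3.61, 4.04 and 3.64 on the dendritic and 3.35, 4.14 and 4.35 on the macrophage arrays. Its 95% interval reached from -0.75 to 0.39 (limma adjusted p = 0.752). Bub1 (-1.26 ± 0.40), the checkpoint protein Mad2l1 (-0.58 ± 0.23) and the complex's activator Cdc20 (-0.68 ± 0.31) did not pass, and for these 3 genes the populations overlapped through macrophage replicate 1.

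At kinetochores and centromeres, where chromosomes meet the spindle, 1 of the 5 genes measured passed, Cenpe. This kinetochore motor read 3.42, 3.71 and 3.60 on the dendritic and 4.06, 5.20 and 5.53 on the macrophage arrays (-1.35 ± 0.33, limma adjusted p = 0.0157). Nuf2, of the microtubule-binding Ndc80 complex, read 3.42, 3.35 and 3.42 against 3.46, 4.73 and 4.91. Its populations did not overlap, by a narrow margin on macrophage replicate 1, and its difference of -0.97 ± 0.33 did not pass (adjusted p = 0.0675), while it passed with the replicate block (limma adjusted p = 0.0328, within 0.000102 to 0.217 over the alternatives).

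The kinetochore protein Cenpf (-1.09 ± 0.42, adjusted p = 0.112) passed with the block (limma adjusted p = 0.042, within 5.21e-05 to 0.333 over the alternatives). Ndc80, a partner of Nuf2, differed by -0.44 ± 0.18 (adjusted p = 0.129). The centromeric histone Cenpa read 7.47, 7.75 and 8.61 against 7.58, 8.41 and 8.93. Dendritic replicate 3 lay above macrophage replicate 2 here, and the 95% interval of the difference ran from -1.20 to 0.47 (limma adjusted p = 0.623). Cenpa and Ttk were called in 0 of 16 and 0 of 14 alternatives.

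Of the 8 kinesins and spindle proteins 0 passed limma's adjusted threshold with all arrays, where 11.6% of all genes were lower and 9.98% higher. An unadjusted limma p under 0.05 was reached by 5. The share of all genes at that unadjusted threshold was not computed, so the 5 cannot be set against it. All 8 means were lower in the dendritic population. The spindle protein Hmmr had the largest difference, with 3.13, 3.45 and 3.52 on the dendritic and 3.40, 5.39 and 5.60 on the macrophage arrays (-1.43 ± 0.49, limma adjusted p = 0.0747). Kif11, the motor that pushes spindle poles apart, read 4.28, 4.40 and 4.28 against 4.37, 6.21 and 6.05 (-1.22 ± 0.41, adjusted p = 0.0701). In both cases macrophage replicate 1 fell within the dendritic values and replicates 2 and 3 were well above them.

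Nusap1, a microtubule-bundling protein, had the smallest difference in this group, with 4.76, 5.48 and 5.75 against 4.63, 6.17 and 6.25 (-0.35 ± 0.42, limma adjusted p = 0.696, 95% interval -1.31 to 0.60). Dendritic replicate 1 and macrophage replicate 1 were its lowest arrays. The kinesins Kif4, Kif2c and Kif15, the spindle assembly factor Tpx2 and the spindle pole protein Ckap2l had differences from -0.40 to -0.88. With the replicate block 3 of the 8 passed, Hmmr (limma adjusted p = 0.0151), Kif11 (0.0264) and Ckap2l (0.0176), with upper ends over the alternatives of 0.236, 0.221 and 0.278.

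Genes of the spindle midzone and of cytokinesis, the final cut between daughter cells, had a median difference of -1.38, and 3 of 5 passed. The contractile ring protein anillin (Anln, probe set 10591781) read 3.53, 3.72 and 3.66 on the dendritic and 4.40, 6.28 and 6.00 on the macrophage arrays (-1.92 ± 0.41, limma adjusted p = 0.00869) and was called in 15 of 15 alternatives. The midzone kinesins Kif23 (-1.43 ± 0.44, adjusted p = 0.0493) and Kif20a (-0.81 ± 0.25, adjusted p = 0.0481) were called near the threshold, Kif23 in 8 of 16 and Kif20a in 8 of 15 alternatives.

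The microtubule bundler Prc1 read 3.61, 3.83 and 3.99 against 3.65, 6.16 and 5.75. Macrophage replicate 1 lay among the dendritic arrays, and the difference of -1.38 ± 0.54 did not pass (limma adjusted p = 0.116; 0.0324 with the replicate block, within 4.58e-05 to 0.341). Ect2, which activates RhoA at the division site, read 4.45, 4.65 and 4.67 against 4.27, 5.63 and 5.49 (-0.54 ± 0.32, adjusted p = 0.323).

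The proliferation marker Mki67 (probe set 10568714), which encodes the Ki-67 antigen that coats mitotic chromosomes, read 4.57, 4.84 and 4.80 on the dendritic and 6.00, 7.33 and 7.32 on the macrophage arrays. Macrophage replicate 1 was intermediate here rather than at the dendritic level. The difference was -2.15 ± 0.32 (limma adjusted p = 0.00122), called in 16 of 16 alternatives. The condensin subunit Ncapg read 3.82, 4.21 and 4.11 against 4.26, 4.93 and 5.05 (-0.70 ± 0.21, adjusted p = 0.047, called in 8 of 15). Topoisomerase II alpha (Top2a), which untangles sister chromatids, read 5.04, 5.34 and 5.47 against 5.13, 6.86 and 6.89. Macrophage replicate 1 fell among the dendritic arrays, and the difference of -1.01 ± 0.42 did not pass (adjusted p = 0.137; 0.0281 with the replicate block, within 7.55e-05 to 0.382). Averaged over both of its probe sets, the difference was -0.55 (limma adjusted p = 0.0857).

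**Figure D2:**
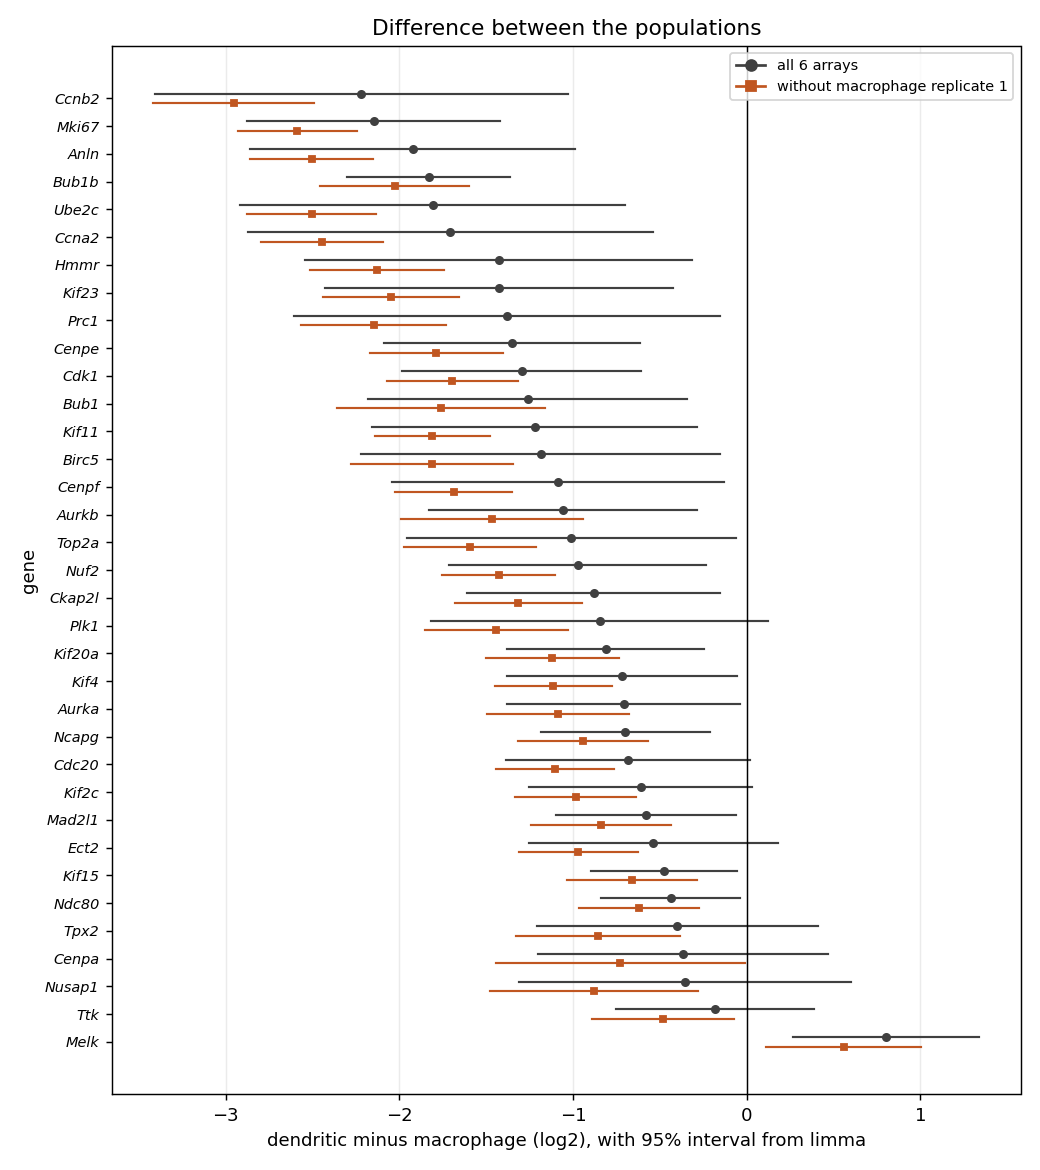
Dendritic minus macrophage difference (log2, horizontal axis) of each of 35 mitotic genes (rows) with its 95% interval from limma, for all 6 arrays (dark circles) and without macrophage replicate 1 (orange squares). Without that array the intervals were shorter for all 35 genes, and 32 genes were called lower against 11 with it.

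The genes were listed with earlier results of these data known, so the shares in this and the next paragraph are description and not a test. Macrophage replicate 1 was the lowest of the 3 macrophage arrays for 35 of 35 genes, where 46.8% of all genes had it lowest. It lay at least 1 log2 unit below the mean of replicates 2 and 3 for 27 of the 35 (77.1%), which was so for 0.762% of all genes (152 of 19938). The 27 genes were thus 17.8% of the 152. The shortfall ran from -2.31 (Prc1) to -0.55 (Ndc80), with a median of -1.31. Replicates 2 and 3 differed from each other by a median of 0.18 and at most 0.52. These 2 arrays lay above all dendritic arrays for 33 of the 35 genes, all but Melk and Cenpa, as for 21.1% of all genes.

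Macrophage replicate 1 itself exceeded all dendritic arrays for 10 genes, Cdk1, Ccna2, Ccnb2, Bub1b, Ube2c, Cenpe, Nuf2, Anln, Ncapg and Mki67. It did so for 24.7% of all genes, near the share of the 35 that these 10 make up (28.6%). In these 10 (28.6%) the populations therefore did not overlap with the dendritic arrays below, as in 16.7% of all genes. Its median excess over the dendritic mean was 0.04 over the 35 genes, against 1.44 for the mean of replicates 2 and 3. Without macrophage replicate 1, 32 of the 35 genes were called lower and the median difference was -1.44. The 3 not called then were Ttk, Cenpa and Melk. On the dendritic side, replicate 1 was the lowest array for 25 of the 35 genes (71.4%), against 47.2% of all genes, with a median standard deviation among the dendritic arrays of 0.19 and among the macrophage arrays of 0.76.

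**Figure D3:**
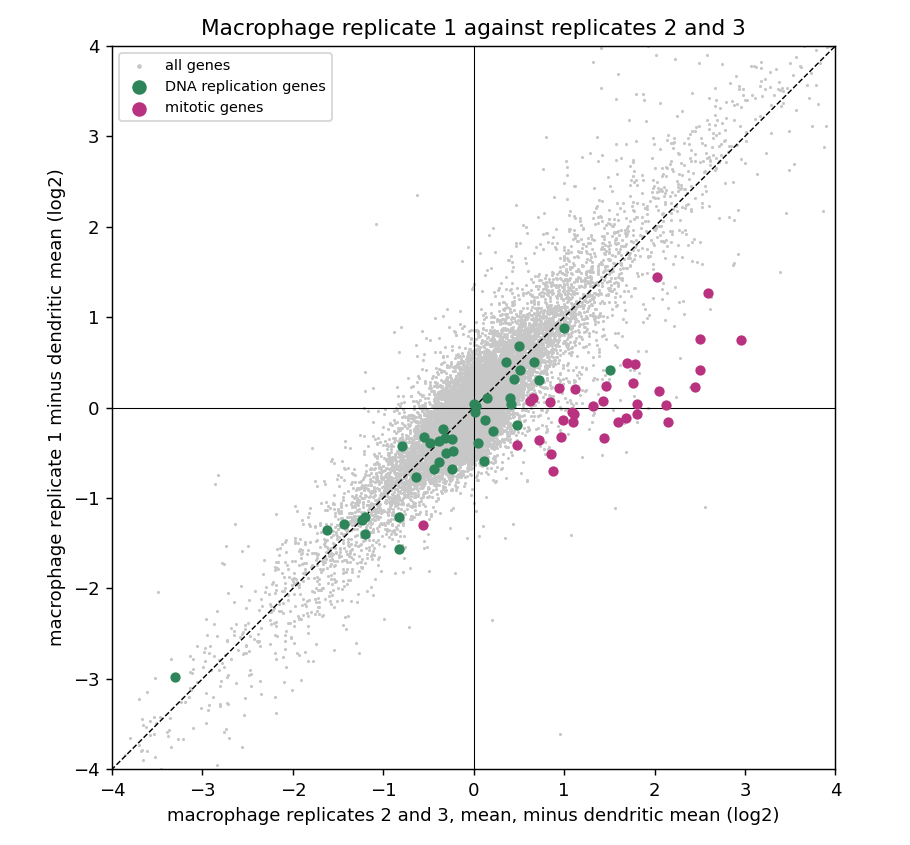
Macrophage replicate 1 minus the dendritic mean (vertical axis, log2) against the mean of macrophage replicates 2 and 3 minus the dendritic mean (horizontal axis, log2), for all genes (grey), 35 mitotic genes (magenta) and 40 DNA replication genes (green). On the dashed line the replicates are equal; the axes share the dendritic mean, and 143 genes lie outside the plotted range of -4 to 4. The mitotic genes lie below the line and the replication genes mostly along it.

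The table has no detection calls, so 1027 olfactory receptor genes, which are used mainly in the nasal epithelium, served as a stand-in for background. Their 95th percentile was 4.58 to 4.87 on the arrays. Above it lay 16, 16 and 17 of the 35 genes on the dendritic arrays, 16 on macrophage replicate 1, and 31 on each of macrophage replicates 2 and 3, while 56.3% to 58.0% of all genes lay above it on each array. Of the 35, 17 were above it on no dendritic array, all 5 midzone and cytokinesis genes among them, so their differences were measured against levels near background. Mki67 was above it on 1 dendritic array. On all 6 arrays 13 genes were above it, among them Cdk1, Ccnb2, Bub1b, Ube2c and Top2a. For 11 genes, including Anln, Hmmr, Kif11, Prc1 and Cenpf, macrophage replicates 2 and 3 were the arrays above it. Kif4, Kif2c, Kif15 and Ttk were above it on no array, so their differences were measured near background.

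The other genes of mitosis differed less in the median. Of 78 further mitotic genes measured, 13 were lower in the dendritic population and 5 higher, where 11.6% and 9.98% of all genes were, with a median difference of -0.37. The largest were those of Cdca3, a mitotic regulator (-1.70 ± 0.41, limma adjusted p = 0.0155), and Incenp, the scaffold of the chromosomal passenger complex (-1.18 ± 0.14, adjusted p = 0.000300), among those lower. Among those higher they were the centromere protein Cenpn (1.5 ± 0.34, adjusted p = 0.0122) and the centriole kinase Plk4 (1.11 ± 0.14, adjusted p = 0.000465). Without macrophage replicate 1, 40 of the 78 were lower and 3 higher, and 28 were lower with the replicate block. Incenp read 6.48, 6.49 and 6.59 on the macrophage arrays and so did not share the low value of replicate 1. The core subunits of the anaphase-promoting complex and 2 of its partners (16 genes) had a median difference of -0.05, and 1 passed, Anapc5 (-0.83 ± 0.18, adjusted p = 0.00876).

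Genes of DNA replication, used in the S phase before mitosis, had a median difference in the other direction (0.29). In the dendritic population 12 of the 40 measured were higher and 5 lower, where 9.98% of all genes were higher and 11.6% lower. Gins3, a subunit of the replicative helicase, read 8.93, 8.20 and 8.18 on the dendritic and 5.46, 5.17 and 5.09 on the macrophage arrays, a 9.17-fold difference (3.20 ± 0.21, limma adjusted p = 9.96e-06). The helicase subunit Mcm6 was also higher (1.54 ± 0.24), while the ribonucleotide reductase subunit Rrm2 (-1.14 ± 0.32) and Gins1 (-0.96 ± 0.14) were lower. Macrophage replicate 1 was at least 1 below the mean of replicates 2 and 3 for 1 of these 40 genes, Rrm2, against 27 of the 35 mitotic genes.

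Regulators of the G1 phase went both ways, in larger shares than those of all genes (9.98% higher and 11.6% lower). Of 20 measured, 4 were higher in the dendritic population, led by cyclin D2 (Ccnd2, 3.69 ± 0.46, limma adjusted p = 0.000438) and cyclin D1 (Ccnd1, 1.47 ± 0.35), and 5 were lower, led by the E2F factors E2f8 (-1.39 ± 0.17) and E2f1 (-1.05 ± 0.16). Ccnd2 read 8.12, 9.91 and 9.97 on the dendritic and 5.16, 5.62 and 6.15 on the macrophage arrays, so replicate 1 was its lowest array in each population. Of 18 cell cycle inhibitors, pocket proteins and subunits of the MuvB complex, 4 were higher and 0 lower at the limma threshold. The matching shares of all genes were 9.98% and 11.6%. The 4 were led by the pocket protein Rbl1 (1.12 ± 0.12, limma adjusted p = 0.000166) and the kinase inhibitor Cdkn2b (0.97 ± 0.17). At an unadjusted limma p under 0.05 the counts were 7 and 0, for which the share of all genes was not computed. With the replicate block 5 were higher and 1 lower, the kinase inhibitor Cdkn2d (limma adjusted p = 0.0182, within 0.0182 to 0.628 over the alternatives). Of all genes, 12.2% were higher and 13.9% lower with that block.

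**Figure D4:**
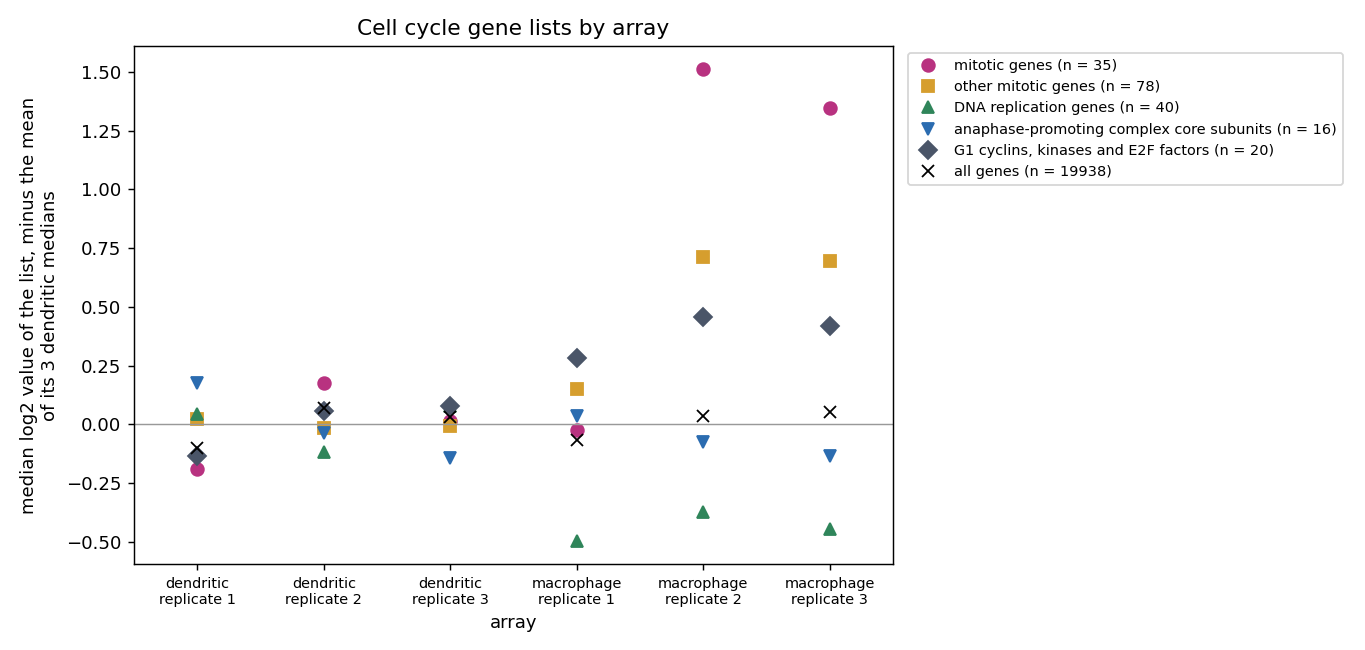
Median log2 value of 5 cell cycle gene lists and of all genes on each array, minus the mean of the list's 3 dendritic medians (vertical axis, log2). The mitotic genes stand higher on macrophage replicates 2 and 3 than on the other 4 arrays, while the DNA replication genes are lower on all 3 macrophage arrays.

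Promoters are shown as description, and their part in the differences between arrays was not tested. Many late cell cycle genes carry a cell cycle genes homology region (CHR), the binding element of the MuvB complex, and CCAAT boxes, bound by the factor NF-Y. In RefSeq promoter windows of the build GRCm38.p6, from 250 bases before to 50 after the start, both strands were searched for TTTGAA or TTCGAA (the CHR letters) and for CCAAT. Windows were found for 31 of the 35 genes (33 windows). A CHR match was present in 27 of the 33 (81.8%), against 19.2% of all 32851 windows. CCAAT was present in 24 (72.7%, against 37.4%), and both in 23 (69.7%, against 7.52%). The other mitotic genes had the CHR letters in 62.3% of 69 windows, CCAAT in 68.1% and both in 44.9%, so shares above those of all windows were not limited to the 35. For the DNA replication genes 9 of 39 windows (23.1%) held the CHR letters and 20 (51.3%) CCAAT. The CHR letters were in 16.7% of windows of the anaphase-promoting complex list, 15.8% for the G1 regulators and 27.8% for the inhibitors and pocket proteins. In the same order CCAAT was in 38.9%, 42.1% and 66.7%, the last being near the share of the 35 genes.

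The following stretches run from 200 bases before to 20 after the start, 5′ to 3′ on the gene's strand, with CHR and CCAAT matches on either strand in capitals. They belong to the gene with the largest difference (Ccnb2), the proliferation marker (Mki67), the mitotic kinase (Cdk1), an enzyme of mitotic exit (Ube2c) and the gene that was higher in the dendritic population (Melk).
Ccnb2 (chr9:70421535-70421754, minus strand): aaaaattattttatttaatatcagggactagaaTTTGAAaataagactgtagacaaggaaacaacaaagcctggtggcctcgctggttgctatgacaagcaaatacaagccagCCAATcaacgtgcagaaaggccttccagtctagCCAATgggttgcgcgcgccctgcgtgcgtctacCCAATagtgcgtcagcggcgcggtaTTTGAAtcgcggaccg
Mki67 (chr7:135716360-135716579, minus strand): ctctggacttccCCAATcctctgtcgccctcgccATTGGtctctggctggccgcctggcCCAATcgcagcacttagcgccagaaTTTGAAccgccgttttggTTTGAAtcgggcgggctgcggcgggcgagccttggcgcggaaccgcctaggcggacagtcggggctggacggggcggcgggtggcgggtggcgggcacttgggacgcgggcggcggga
Cdk1 (chr10:69352893-69353112, minus strand): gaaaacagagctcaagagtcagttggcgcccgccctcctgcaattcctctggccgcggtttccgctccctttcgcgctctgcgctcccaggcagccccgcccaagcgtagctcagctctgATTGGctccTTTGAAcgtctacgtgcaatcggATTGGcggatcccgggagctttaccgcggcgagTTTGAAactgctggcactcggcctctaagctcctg
Ube2c (chr2:164769729-164769948, plus strand): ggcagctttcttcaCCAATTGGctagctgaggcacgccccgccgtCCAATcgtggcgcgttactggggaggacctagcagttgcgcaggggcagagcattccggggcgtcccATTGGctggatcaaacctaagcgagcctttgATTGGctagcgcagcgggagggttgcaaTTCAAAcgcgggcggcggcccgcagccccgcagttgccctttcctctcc
Melk (chr4:44300717-44300936, plus strand): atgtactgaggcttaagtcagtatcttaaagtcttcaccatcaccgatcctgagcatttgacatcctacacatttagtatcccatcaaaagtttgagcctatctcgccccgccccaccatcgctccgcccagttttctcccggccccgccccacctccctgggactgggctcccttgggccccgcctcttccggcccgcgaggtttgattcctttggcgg
Ccnb2, Mki67 and Cdk1 each held 2 CHR matches in these stretches, Ube2c held 1 and Melk held 0. CCAAT matches numbered 3 in Ccnb2, 3 in Mki67, 2 in Cdk1, 5 in Ube2c, of which the first pair overlap, and 0 in Melk. Over the whole window of 300 bases neither motif was found in Melk, Birc5, Mad2l1, Nuf2 or Nusap1. Of those 5 genes, Birc5, Nuf2 and Nusap1 had macrophage replicate 1 at least 1 below replicates 2 and 3, as most of the 35 did. A match describes these letters only, and no binding was measured.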

How the data were processed

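Values are the authors' deposited log2 expression values of 35556 probe sets, for which the submitters' processing notes name RMA and R 3.0.2. This method subtracts background, equalises the arrays' distributions and summarises probes, so a shift shared by all genes is not kept. The sources used here give no genome build for the probe annotation. GEO's platform annotation gave 21789 probe sets a single gene symbol and 1621 several, and did not list 12146; several-symbol and unlisted probe sets were not named. Of the single-symbol probe sets 21698 were found in the RefSeq gene table (GRCm38.p6), and 0 symbols changed. For 999 genes with several probe sets, the one with the highest mean was used. The arrays' number, 3 per population, limits the precision; array medians ran from 4.79 to 4.96.

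Dendritic and macrophage arrays were compared with limma 3.58.1 (lmFit, eBayes) in R 4.3.3, without a block, over all 19938 genes, with Benjamini-Hochberg adjustment and a threshold of 0.05. The script was tested on simulated data with known changes. It recovered 60 of 66 changes of 2 log2 units, 32 of 67 of 1 and 3 of 67 of 0.5. Of its 97 calls 2 were false. The simulation changed a far smaller share of genes than was called here, and its noise was independent between genes. These rates therefore do not give the power for the mitotic genes, which were low together on macrophage replicate 1. A gene that did not pass may still differ. The main fit did not pair the arrays, and replicate numbers served as a block in an alternative fit only. Deviations from the population means correlated at 0.385, 0.147 and 0.272 for numbers 1, 2 and 3. What same-numbered arrays share is unstated, and dendritic replicate 2 correlated slightly better with macrophage replicate 3 (0.155). Blocked values stand beside a mitotic gene's result where they change its call, or a count where they move it by over 1.5 times. Alternatives were the block, repeated quantile normalization, centring on the 75th percentile, a filter at the 30th percentile or at the median of mean level, array weights, a trended robust variance prior, averaged probe sets, all probe sets tested, and leaving out each array or both replicates 1. Array values are given for Mki67, Top2a, Cdk1, the genes with the largest and smallest difference in each role group, while each other list is represented by up to 2 called genes per direction; further genes named or shown by array were picked once their values were known. The members and gene lists were chosen with earlier results of these data known.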

Additional observations from a re-analysis of the deposited data

How the results depend on the processing

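The median difference of the mitotic genes stayed below 0 in all 16 alternatives, between -1.44 and -0.70 when 1 array was left out. Of the 35 genes, 33 were below 0 in every alternative that tested them. When 1 array was left out Ttk ranged from -0.48, without macrophage replicate 1, to 0.0196, without macrophage replicate 3 (the latter at a limma adjusted p = 0.979, within 0.104 to 0.979 over its alternatives). Of the 35, 21 were lower with the replicate block, 30 with array weights and 32 without replicate 1 of both populations. The count lower was 4 with all probe sets tested and 3 to 32 when 1 array was left out. The count higher was 0 with all probe sets tested and 0 to 1 when 1 array was left out. Among all genes, 13.9% were lower with the replicate block, 13.5% without replicate 1 of both populations and 11.0% without macrophage replicate 1. The shares for the other fits are not given here. The array weights were 0.338, 0.967 and 1.405 on the dendritic and 0.565, 3.919 and 0.983 on the macrophage arrays, in replicate order. The weighted fit thus counted replicate 1 least in each population. Of the other mitotic genes, 28 were lower with the replicate block, 40 with array weights, 44 without replicate 1 of both populations, 8 with genes under the median left out, 6 with all probe sets tested and 6 to 40 when 1 array was left out; 3 were higher with genes under the median left out, 3 without replicate 1 of both populations, and 3 to 4 when 1 array was left out. Of the DNA replication genes, 2 were lower with genes under the median left out, 8 with array weights and 1 to 5 when 1 array was left out. The block gave 6 lower and 14 higher DNA replication genes, 6 lower and 4 higher G1 regulators, and 6 higher progenitor markers. With the 99th percentile of the stand-in as background, 5, 2 and 9 of the 35 genes were above it on the dendritic arrays and 10 on macrophage replicate 1, which had 25 above the 90th. The filters tested fewer genes; the cause of the other changes was not tested. Of the 35 genes, 3 (Bub1b, Mki67, Anln) were called in every alternative that tested them. There are 3 arrays per population and no detection calls, so signal over background could only be judged by the stand-in.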

Other observations

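Most of the 152 genes that lay at least 1 log2 unit below replicates 2 and 3 on macrophage replicate 1 were outside the cell cycle lists (106 genes). Genes named here were picked from their values. The chemokine gene Ccl17 had the largest gap of all genes, -4.57, with 7.13, 11.86 and 11.53 on macrophage replicates 1, 2 and 3 and 10.77, 11.00 and 10.44 on dendritic replicates 1, 2 and 3. Macrophage replicate 1 was its lowest array, and the other two macrophage arrays stood above the dendritic ones.

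Cish, a cytokine-induced inhibitor of STAT5 signalling, read 5.92, 8.87 and 8.07 on macrophage replicates 1, 2 and 3 and 7.26, 8.77 and 8.77 on the dendritic arrays. Scd1, a fatty acid desaturase, read 6.01, 8.32 and 9.06 against 7.57, 7.13 and 6.66. For Cish replicate 1 was the lowest array in each population, while for Scd1 dendritic replicate 1 was the highest dendritic array. Genes from the mitotic lists made up 45 of the 152 (29.6%), which were 39.8% of the 113 mitotic genes measured.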
